A study of Mus musculus with 8 samples.

Results

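Binding sites of C/EBPα in mouse liver were compared between mice whose floxed Trib1 gene was targeted by Cre recombinase and floxed mice given an empty vector. The comparison used the 4 peak lists titled Trib1_LSKO (n = 2) and Trib1_WT (n = 2), of 8 in the series. All 4 came from C57B/6 Trib1 flox/flox mice aged 8 to 10 weeks, kept on chow and fasted for 4 hours. Trib1_WT mice had received 1.5e11 gc of the adeno-associated virus AAV_Null, and Trib1_LSKO mice 1.5e11 gc of AAV_Cre, by injection into the peritoneum. Every group thus carried the floxed alleles and a viral vector, and the groups differed in what the vector encoded. The other 4 lists came from C57B/6 wild-type mice of that age and fasting time, given 1e12 gc of AAV_Null or of AAV_Cebpa (2 lists each). Those lists are used here only to read the sites chosen in the first 4. Liver chromatin was fixed in 1% formaldehyde and precipitated with the C/EBPα antibody sc-61. Neither the promoter of the Cre vector nor the animals behind each library are named in the labels, so the spread between replicates may be technical.

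C/EBPα is a basic leucine zipper transcription factor that hepatocytes use to maintain genes of plasma proteins, glucose output and lipid metabolism. Trib1 encodes Tribbles-1, a pseudokinase that brings C/EBPα to the ubiquitin ligase COP1 and so marks it for breakdown by the proteasome. Variation near the human TRIB1 gene is associated with plasma lipids. The comparison addressed how C/EBPα occupancy in liver differs when Trib1 is targeted. Peak lists hold neither transcript nor protein levels, so the loss of Trib1 and the amount of C/EBPα were not measured here.

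A site is a stretch of mm9 in which 200 bp peaks of the 4 lists overlapped by 1 bp or more. The 211165 peaks (53327 and 54691 in Trib1_WT, 50075 and 53072 in Trib1_LSKO) formed 75389 sites, of 113353 in all 8 lists. All 4 lists held 34811 of these sites, called common sites below. The number of peaks per list was 54009 ± 964 in Trib1_WT and 51573.5 ± 2119 in Trib1_LSKO (SD, n = 2; exact two-sided permutation p = 0.33, the smallest that 2 against 2 libraries can give). Relative to Trib1_WT replicate 1, the depth was 1.69 in Trib1_WT replicate 2, 1.04 in Trib1_LSKO replicate 1 and 1.12 in Trib1_LSKO replicate 2. The weakest listed peaks held 7, 11, 8 and 8 tags in the same order of libraries, so absence from a list is a weaker statement than presence.

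Strength is given on either of 2 scales. The within-list percentile places a peak's deposited signal among all peaks of its own list, with 100 for the strongest. The rank shift uses the common sites only: each library's ranks over these 34811 sites were turned into normal scores (SD units, with a mean of 0 in every library), and the shift is the Trib1_LSKO mean minus the Trib1_WT mean. A site rose or fell where the Benjamini-Hochberg adjusted p of limma was under 0.05. Ranks are relative: where some sites move up the order, others must move down, and a gain of binding shared by all sites would leave no trace.

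Among the C/EBPα sites that passed the threshold, those that moved up the order in Trib1_LSKO were more numerous than those that moved down. Among the common sites, 2590 rose (7.44% of those tested) and 770 fell (2.21%), so 9.65% passed in either direction by limma with Benjamini-Hochberg adjustment. The unadjusted limma p was under 0.05 at 8370 sites (24.0%). The median rise was 1.07 and the median fall -0.86 SD units, which in percentile points is 28.1 and -28.4. Without any test, both Trib1_LSKO ranks lay above both Trib1_WT ranks at 7933 sites (22.8%) and below them at 11129 (32.0%), so more common sites lay lower than higher in both Trib1_LSKO lists, although more rises than falls passed.

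The median shift of all common sites was -0.083 and its SD 0.507, against SDs of 0.351 for the difference of the control replicates and 0.411 for that of the Trib1_LSKO replicates. Large shifts were mostly upward. Shifts above 1 numbered 1628 and shifts below -1 numbered 415, against 306 and 284 such differences between the control replicates and 462 and 411 between those of Trib1_LSKO. Shifts above 2 numbered 157, whereas 7 sites in Trib1_WT and 14 in Trib1_LSKO differed by that much between replicates, replicate 1 being the higher. Shifts below -2 numbered 3, against 7 and 9 differences between replicates. Shifts are means over 2 libraries a group and replicate differences are between single libraries, so their spreads differ in that way too.

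**Figure D1:**
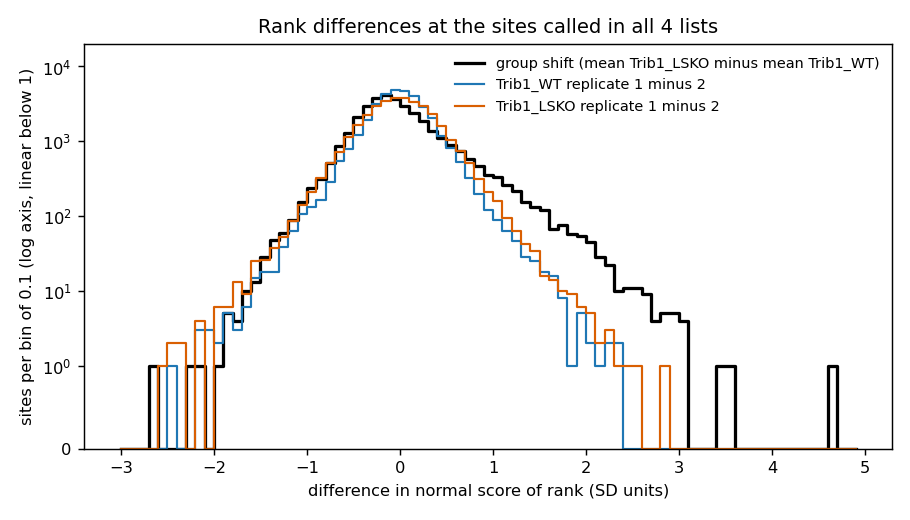
Number of common sites per bin of 0.1 (vertical, log axis that is linear below 1) by difference in normal score of rank (horizontal, SD units). The black line, the group shift, extends to 4.63 on the right, beyond both lines for replicate differences, and lies close to them on the left.

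The number of fallen sites depended on single libraries more than the number of risen ones. Fallen sites numbered 121 without Trib1_WT replicate 1, 197 without Trib1_WT replicate 2, 1153 without Trib1_LSKO replicate 1 and 2557 without Trib1_LSKO replicate 2, against 1760 to 3404 risen sites. Rises made up 77.1% of the sites that passed, 87.6% (3190 rises, 453 falls) with the shift centred on its median, and 57.1% without Trib1_LSKO replicate 2. In none of these settings did a site pass in the direction opposite to its call with all 4 libraries.

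The replicates of Trib1_LSKO were not equally far from the controls. Over the common sites, Spearman's rho was 0.949 between the Trib1_WT lists and 0.925 between the Trib1_LSKO lists. It was 0.831 and 0.810 between Trib1_LSKO replicate 1 and the 2 controls, and 0.864 and 0.861 for Trib1_LSKO replicate 2. These are descriptions over sites, which share libraries and are not replicates. Peaks of a common site are linked through overlaps by definition, though not every pair of them need overlap. The median distance between their midpoints was 11 to 12 bp in every pair of lists, replicates included.

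Sites that rose went from the middle of the order to its upper part. Their median percentile was 50.9 and 46.9 in the Trib1_WT lists and 81.6 and 79.0 in the Trib1_LSKO lists. Of the 2590, 114 had a mean percentile over 90 in Trib1_WT and 672 in Trib1_LSKO, and 202 moved by more than 50 percentile points. Sites that fell went the other way, with medians of 74.97 and 74.90 in Trib1_WT and 42.1 and 49.6 in Trib1_LSKO. Of the 770, 97 were over 90 in Trib1_WT and 31 in Trib1_LSKO, and 7 moved by more than 50 points. These values come from the contrast that chose the sites and describe them only.

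Rises occurred at every strength. With the common sites divided by mean rank into 10 classes of equal size, the share that rose ran from 4.34% in the weakest class to 9.37% in the fifth and 5.37% in the strongest. The share that fell ran from 1.55% in the weakest class to 2.90% in the sixth and 1.06% in the strongest. The SD of the shift decreased from 0.677 in the weakest class to 0.312 in the strongest, as did that of the Trib1_WT replicate difference (0.607 to 0.216).

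The largest rise was at chr13:52577181-52577422, in mm9 coordinates. This site stood at percentiles 3.35 and 2.22 in Trib1_WT and 99.3 and 96.3 in Trib1_LSKO, a shift of 4.63 ± 0.267 (SE; limma, Benjamini-Hochberg adjusted p = 3e-10). It was thus among the weakest peaks of both control lists and the strongest of both knockout lists. Next came chr17:71094646-71094994, at 3.35 and 13.5 in Trib1_WT and 95.5 and 91.7 in Trib1_LSKO, and chr2:135695409-135695632, at 3.35 and 5.65 against 89.8 and 89.8. The fourth, chr15:59525143-59525369, lay 35.1 kb from Trib1 and is described with that gene.

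The other 6 of the 10 largest rises had shifts between 2.97 and 3.05. They were chr2:106907686-106907916, chr5:17001483-17001720, chr4:58161411-58161734, chr14:34854066-34854295, chr10:66902133-66902357 and chr4:85947438-85947673. Their percentiles lay between 10.5 and 32.5 in Trib1_WT and between 89.8 and 97.7 in Trib1_LSKO. None of the 10 lost its call when any 1 library was left out. Only the one near Trib1 lay within 50 kb of a gene of the lists used here.

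Falls were smaller and reached the bottom of the order from its middle. The largest was at chr12:105183288-105183499, at 65.5 and 50.8 in Trib1_WT and 0.579 and 2.26 in Trib1_LSKO, a shift of -2.61 ± 0.409 (SE; limma, Benjamini-Hochberg adjusted p = 0.000115). It lay within 100 kb, though not within 50 kb, of Serpina1a, which encodes a form of the protease inhibitor alpha-1 antitrypsin. It was followed by chr14:116607907-116608168, at 45.2 and 50.8 against 0.579 and 2.26, and chr8:11990065-11990273, at 74.4 and 52.4 against 6.17 and 4.86. The ranks of the groups did not overlap at these sites, as at all 770 that fell, and their Trib1_WT peaks were of ordinary strength.

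The other 7 of the 10 largest falls had shifts between -1.91 and -1.75. They were chr17:32173189-32173449, chr15:4511703-4511968, chr11:64374006-64374254, chr7:84931694-84931903, chrX:105803855-105804086, chr11:44782573-44782845 and chr13:4785662-4785922. Of these, 4 calls ended when a library was left out, with limma's Benjamini-Hochberg adjusted p between 0.0529 and 0.135: those on chromosomes 17 (without Trib1_WT replicate 1, 0.0713, or 2, 0.135), 15 (without Trib1_WT replicate 1, 0.0947), X (without Trib1_LSKO replicate 1, 0.0539) and 13 (without Trib1_WT replicate 2, 0.0529). The call on chromosome X also ended without limma's trend of variance on mean rank (adjusted p = 0.0914). Trib1_LSKO replicate 2 held that site at 26.9 and replicate 1 at 0.579, the widest gap between replicates among the 20 sites.

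**Figure D2:**
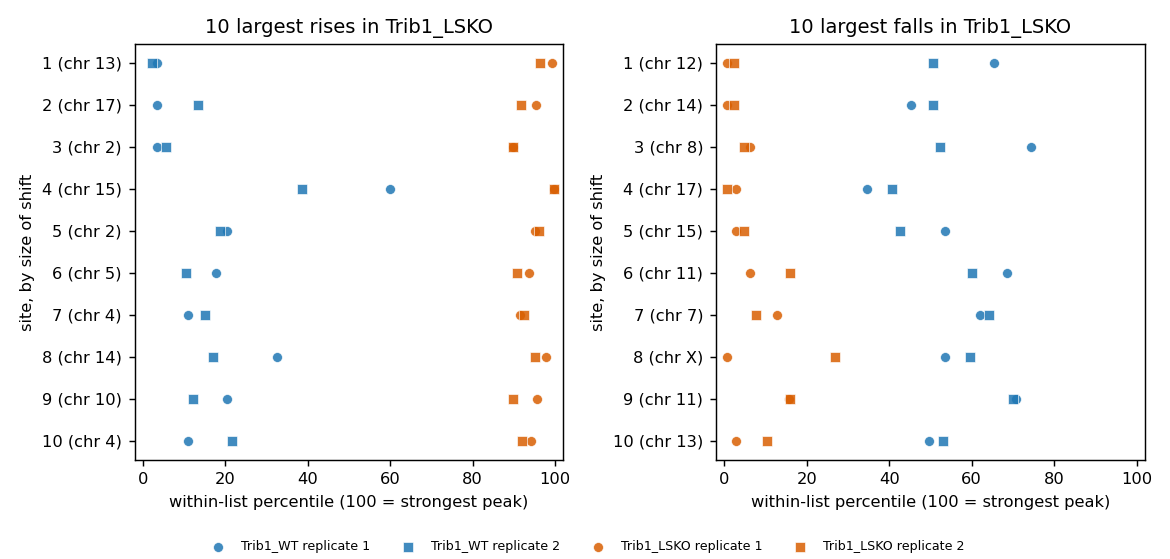
Within-list percentile (horizontal, 100 for the strongest peak) in each of the 4 libraries for the 10 largest rises (left) and the 10 largest falls (right), ordered by shift. Rises cross nearly the whole scale, as the top one does from 3.35 and 2.22 to 99.3 and 96.3, and falls start mostly from the middle.

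Presence in the lists changed in both directions. Gained sites, held by both Trib1_LSKO lists and neither Trib1_WT list, numbered 3577 (4.74% of all sites). Lost sites, held by both Trib1_WT lists and neither Trib1_LSKO list, numbered 3674 (4.87%). No site can be tested by presence with 2 libraries a group. Beside these and the common sites, 33327 sites were in only 1 list of at least 1 group, among them 18881 in 1 list and 9644 in 3. With all lists reduced to the length of the shortest, 3882 sites were gained and 3147 lost, so which of the 2 was larger depended on list length. With 1 library left out, a looser definition, gained sites numbered 5456 to 7662 and lost sites 5549 to 9344.

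Few of the gained and lost sites were strong. The median of their mean percentile was 27.9 for gained and 24.5 for lost sites, and 18 gained against 4 lost sites had a mean over 90. The strongest gained site, chr1:145748360-145748567, stood at 97.6 and 98.6 in Trib1_LSKO. The fifth, chr1:145829006-145829218, stood at 93.9 and 97.0, in the next window of 100 kb on that chromosome. The strongest lost site, chr13:35108176-35108417, stood at 95.6 and 97.4 in Trib1_WT.

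Some gained and lost sites were neighbours. Near Ppargc1a, the coactivator of fasting metabolism, the gained site chr5:51987169-51987381 (94.0 and 94.9 in Trib1_LSKO) lay beside the lost site chr5:51986865-51987102 (86.2 and 89.0 in Trib1_WT). The gained site chr1:164822262-164822488 (97.2 and 97.2) and the lost site chr1:164821957-164822166 (94.98 and 91.00) formed a like pair. In the wild-type mice, both gained sites were in all 4 lists and both lost sites in none. The AAV_Null lists held the gained site near Ppargc1a at 59.3 and 48.2 and the one on chromosome 1 at 83.3 and 80.6. Whether such pairs are separate sites or a moved peak position was not tested. Requiring no peak of the other group within 500 bp left 3281 gained and 3270 lost sites.

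Sites near each other moved alike. Pearson's r between the shift of a common site and that of the next common site was 0.49 at under 1 kb (1810 pairs), 0.387 at 1 to 5 kb (5911), 0.216 at 5 to 20 kb (10805), 0.157 at 20 to 100 kb (10982) and 0.082 at 100 to 500 kb (4379). These pairs share all 4 libraries, so the values describe these lists only. Gain and loss followed the same pattern. A gained site lay within 10 kb of 14.6% of risen, 7.08% of unmoved and 4.03% of fallen sites. A lost site lay within 10 kb of 3.55% of risen, 7.34% of unmoved and 14.3% of fallen sites.

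Among fixed windows of 100 kb, the one with the most upward changes was on chromosome 15, beside Trib1 itself. The window from 59.5 to 59.6 Mb held 21 sites, of which 5 were gained and 6 rose while none was lost or fell. The next window, from 59.6 to 59.7 Mb, held another 21 sites, of which 4 were gained and 5 rose, again with none lost or fallen. Other windows with many upward changes were on chromosome 5 at 72.6 to 72.7 Mb (10 of 18 sites) and chromosome 10 at 23.9 to 24.0 Mb (9 of 10). There were 8 each on chromosome 1 at 145.7 to 145.8 Mb (of 12), chromosome 14 at 68.9 to 69.0 Mb (of 11) and chromosome 2 at 135.6 to 135.7 Mb (of 14). In each of these other windows the share of sites that changed upward was larger than in the windows beside Trib1, which held more sites. None of these 7 windows held a lost or fallen site.

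Around Trib1, 54 sites lay between 50 kb below and 210 kb above the gene's listed position, a stretch chosen after these values were seen. Of these, 9 were gained, 11 rose, 18 common sites passed in neither direction, 16 were uneven within a group, and none was lost or fell. Over the genome, 4.74% of all sites were gained and 4.87% lost, and 7.44% of all common sites rose and 2.21% fell. The neighbouring coding genes of Trib1 in the later build GRCm38.p6 are Nsmce2 and 4933412E24Rik. The changed sites were not at the gene but began 35.1 kb above it and ended at 194.5 kb, where above and below mean toward higher and lower coordinates. Distances are from gene positions listed from general knowledge and rounded to 10 kb, which were not checked against an mm9 annotation.

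Over Trib1 itself, 3 common sites were near the top of every list. The site chr15:59485403-59485623 stood at 99.986 and 99.998 in Trib1_WT and 99.95 and 99.96 in Trib1_LSKO, chr15:59484372-59484587 at 99.98 and 99.94 against 99.83 and 99.85, and chr15:59479991-59480195 at 99.6 and 99.4 against 99.2 and 99.5. None of them passed (shifts of -0.53, -0.47 and -0.10; limma, Benjamini-Hochberg adjusted p of 0.137, 0.145 and 0.764). The part of the gene flanked by loxP sites is not given in the labels, so these sites do not check the deletion.

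The change began with chr15:59525143-59525369, 35.1 kb above the gene. It stood at 60.1 and 38.7 in Trib1_WT and 99.7 and 99.7 in Trib1_LSKO, a shift of 3.10 ± 0.185 (SE; limma, Benjamini-Hochberg adjusted p = 3.15e-10). In the wild-type mice this site was in only 1 of the AAV_Null lists, at 5.6, and at 99.7 and 99.8 in the AAV_Cebpa lists. A site 33.9 kb above the gene, chr15:59523901-59524115, was in 1 Trib1_WT list at 7.28 and in Trib1_LSKO at 94.9 and 91.3. This site counts as neither gained nor common.

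The strongest gained sites of the stretch were 48.7 and 123.9 kb above Trib1. The site chr15:59538695-59538934 stood at 96.7 and 94.0 in Trib1_LSKO and at 99.753 and 99.975 in AAV_Cebpa. The site chr15:59613931-59614131 stood at 93.9 and 93.5 in Trib1_LSKO and 96.0 and 95.1 in AAV_Cebpa. Both were absent from all 4 lists of mice given AAV_Null.

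Other rises followed along the stretch. At 69.7 kb, chr15:59559693-59560064 went from 52.2 and 50.8 to 94.6 and 94.4 (shift 1.84). At 93.4 kb, chr15:59583365-59583572 went from 79.1 and 68.8 to 98.98 and 97.80 (1.73). The farthest, chr15:59676677-59676881 at 186.7 kb, went from 34.6 and 23.1 to 96.1 and 88.3 (2.43; limma, Benjamini-Hochberg adjusted p = 2.44e-07). In between, 4 strong common sites at 114.2 to 128.3 kb stood at percentiles of 95.9 to 99.97 in all 4 lists and did not pass.

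Of the 11 rises around Trib1, 9 kept their call with each library left out. Without Trib1_WT replicate 2, limma's Benjamini-Hochberg adjusted p was 0.147 at the site 41.3 kb above the gene and 0.354 at the one 86.2 kb above it. Without limma's trend these 2 and the site at 58.6 kb lost the call (0.0847, 0.144 and 0.0565).

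**Figure D3:**
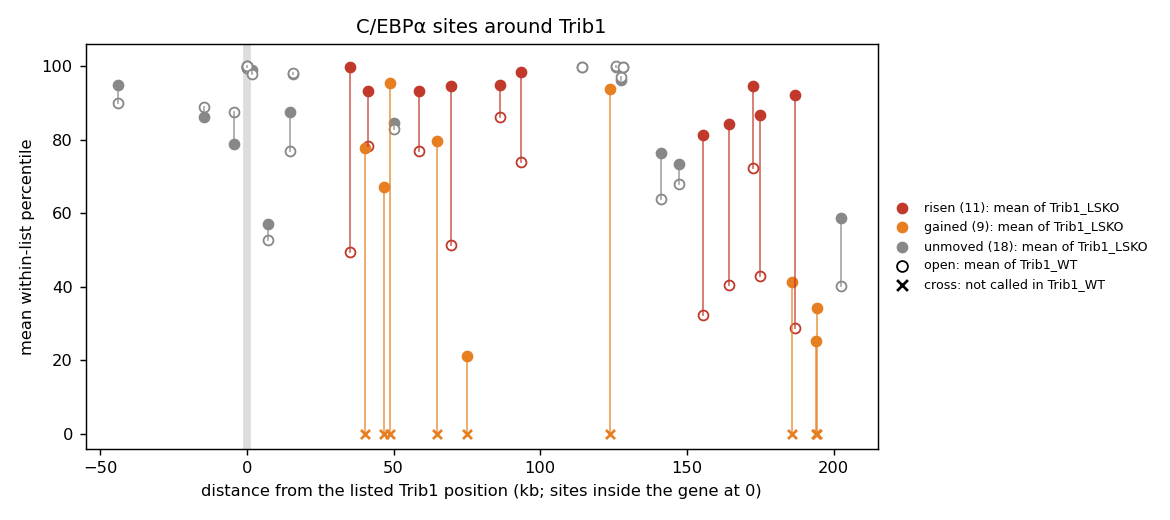
Mean within-list percentile (vertical) of common and gained sites by distance from the listed Trib1 position (horizontal, kb), with filled points for Trib1_LSKO, open points for Trib1_WT and crosses for sites absent from both Trib1_WT lists. The sites at the gene stay near 100 in both groups, and the 11 risen and 9 gained sites lie between 35.1 and 194.5 kb.

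The windows with the most downward changes held fewer. Chromosome 1 from 153.1 to 153.2 Mb had 8 of 13 sites lost (5) or fallen (3) and none gained or risen. There were 6 each on chromosome 11 at 86.6 to 86.7 and 106.3 to 106.4 Mb, chromosome 14 at 66.3 to 66.4 Mb, chromosome 18 at 39.0 to 39.1 Mb and chromosome 9 at 53.1 to 53.2 Mb. Over the genome, 326 windows held 3 or more upward changes and no downward one, 132 the reverse, and 882 held both, of 16267 windows with a site.

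Liver genes were described through 41 loci listed by function, each with the sites within 50 kb. The loci were chosen with earlier results of these data known. Together they held 650 sites, of which 24 were gained (3.69%), 23 were lost (3.54%) and 372 were common. Of the common sites, 10 rose (2.69%) and 7 fell (1.88%), against 7.44% and 2.21% over all common sites, and their median shift was -0.127 against -0.083. The common sites near liver genes were strong, with a median percentile of 82.0 in Trib1_WT against 65.7 over all.

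The labelled tissue could be checked only through the number of sites near marker genes. Between 11 and 28 sites lay within 50 kb of each of the hepatocyte markers Alb, Apoa1, Apob, Cps1, Pck1, G6pc and Cyp7a1. The myeloid markers Spi1, Lyz2 and Itgam had 7 to 9, the T cell marker Cd3e had 11, the neuronal gene Neurod1 had 3 and the muscle gene Myod1 had none. Other liver loci had as few as these: Hp, Hamp and Igfbp1 had 10 each, Fasn and Srebf1 9 each and Cebpd 5. The counts of liver loci and of loci of other cell types thus overlapped. Around the 6 loci of other cell types 5 of 37 sites were lost (13.5%, against 4.87% of all sites) and 1 of 20 common sites rose (5.0%, against 7.44%). The rise, near the lysozyme gene Lyz2, lost its call without Trib1_WT replicate 2 (limma, Benjamini-Hochberg adjusted p = 0.0823), and the part of other cells in the results was not tested.

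Genes of fat synthesis and storage held 4 rises (4.88%, against 7.44% of all common sites) and no fall (against 2.21%) among 82 common sites. The share of rises was thus below that over all common sites, and 3 of the 4 were at Pparg. Pparg encodes the nuclear receptor PPARγ, a driver of fat storage. Its 14 common sites had a median shift of 0.42, the highest of the liver loci. The site chr6:115374578-115374794, over the gene, stood at 99.06 and 99.07 in Trib1_WT and 99.88 and 99.93 in Trib1_LSKO (shift 0.83 ± 0.173; limma, Benjamini-Hochberg adjusted p = 0.00249). The site chr6:115461556-115461811, 21.6 kb above the gene, stood at 91.5 and 90.1 against 99.8 and 98.3 (1.28 ± 0.197; adjusted p = 9.17e-05). The ranks of the groups did not overlap at either site, as at all 2590 sites that rose, so this adds nothing to the call.

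The third Pparg site, chr6:115382589-115382840, stood at 20.5 and 20.3 in Trib1_WT and 61.4 and 39.1 in Trib1_LSKO. Its limma Benjamini-Hochberg adjusted p was 0.0425, and 0.145, 0.153 and 0.322 without Trib1_WT replicate 1, Trib1_WT replicate 2 and Trib1_LSKO replicate 1. A gained site at the gene, chr6:115402712-115402918, stood at 70.9 and 70.7. The calls at the other 2 Pparg sites held with each library left out but ended without limma's trend (0.0539 and 0.0521) and, at the first, on the percentile scale (0.468).

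The other rise in the list was at Dgat2, which encodes an enzyme that makes triglyceride. The site chr7:106337237-106337445 stood at 96.3 and 96.8 in Trib1_WT and 99.5 and 99.5 in Trib1_LSKO (shift 0.80 ± 0.158; limma, Benjamini-Hochberg adjusted p = 0.00148, and 0.0567 without the trend and 0.067 on the percentile scale). A gained site 7.9 kb below the gene stood at 70.1 and 79.0. The other loci of the list showed no rise. Fasn, the fatty acid synthase gene, had 1 weak gained site (12.8 and 32.3). Scd1, Srebf1 and Mlxipl, for a desaturase and 2 transcription factors of fat synthesis, had 1 lost site each, none above 46.4 in either Trib1_WT list. Acly, Pklr and Cidec had no changed site. Over this group, 3 of 140 sites were gained and 3 lost (2.14% each, against 4.74% and 4.87% of all sites).

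Plasma protein genes held 2 falls (4.44%, against 2.21% of all common sites) and no rise (against 7.44%) among 45 common sites. Their median shift was -0.19. A site at Fgb, the fibrinogen beta chain gene, which also lies within 50 kb of Fgg, stood at 94.3 and 95.8 in Trib1_WT and 86.4 and 89.0 in Trib1_LSKO (limma, Benjamini-Hochberg adjusted p = 0.04). A site 7.4 kb above the haptoglobin gene Hp stood at 34.6 and 46.4 against 9.48 and 4.86 (0.031). Both calls ended with single libraries left out. At Fgb the adjusted p was 0.147, 0.363 and 0.0766 without Trib1_WT replicate 1, Trib1_WT replicate 2 and Trib1_LSKO replicate 1, and at Hp it was 0.0987, 0.311 and 0.055 without Trib1_WT replicate 1, Trib1_WT replicate 2 and Trib1_LSKO replicate 2. The albumin gene Alb and its neighbour Afp had no changed site. Serpina1a had 2 gained and 2 lost sites, none above 71.1 in any of the 8 lists. Hp had a lost site 4.4 kb below the gene (67.9 and 63.8 in Trib1_WT), and Fgb a gained site 42.6 kb above that gene (2.84 and 4.86 in Trib1_LSKO). Over this group, 3 of 76 sites were gained and 3 lost (3.95% each, against 4.74% and 4.87% of all sites).

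Genes of lipoproteins held 1 rise and 1 fall among 43 common sites (2.33% each, against 7.44% and 2.21% of all common sites). A site at Mttp, which loads lipid onto apolipoprotein B, stood at 99.1 and 97.1 in Trib1_WT and 99.9 and 99.3 in Trib1_LSKO (limma, Benjamini-Hochberg adjusted p = 0.0321). The fall was near Apoa1, the main protein of high-density lipoprotein, at 94.2 and 96.2 against 88.0 and 87.2 (0.0302). Both calls ended without Trib1_WT replicate 2 (0.366 at each). Leaving out Trib1_WT replicate 1 also ended that at Apoa1 (0.0848), and leaving out Trib1_LSKO replicate 1 that at Mttp (0.245). Mttp had 1 gained site, Apoa1 and Apob had 1 lost site each, and Apoe had no changed site. Over this group, 1 of 68 sites was gained (1.47%, against 4.74% of all sites) and 2 were lost (2.94%, against 4.87%).

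Fasting and gluconeogenic genes held 1 fall (1.49%, against 2.21% of all common sites) and no rise (against 7.44%) among 67 common sites. The fall was at Tat, tyrosine aminotransferase, at 99.5 and 99.6 in Trib1_WT and 95.01 and 98.57 in Trib1_LSKO (limma, Benjamini-Hochberg adjusted p = 0.0138, and 0.0695 and 0.177 without Trib1_WT replicate 2 and Trib1_LSKO replicate 1). Pck1 and G6pc, for the enzymes that commit the liver to glucose output, had 1 gained site each and no common site that passed. Ppara, Cpt1a and Fgf21, for fatty acid oxidation and its hormone, had 1 to 2 gained or lost sites each. These stood at 50.9 or less in the lists that chose them. Stronger were a lost site over Tat (70.0 and 62.6 in Trib1_WT), a gained site 45.4 kb above it (66.1 and 67.2 in Trib1_LSKO), and the pair near Ppargc1a described above. Over this group, 7 of 119 sites were gained (5.88%, against 4.74% of all sites) and 5 lost (4.20%, against 4.87%).

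Bile acid and cytochrome genes held 1 rise and 1 fall among 35 common sites (2.86% each, against 7.44% and 2.21% of all common sites). The rise was 39.9 kb below Cyp7a1, the rate-limiting enzyme of bile acid synthesis, at 92.6 and 94.0 in Trib1_WT and 97.4 and 97.8 in Trib1_LSKO (limma, Benjamini-Hochberg adjusted p = 0.0283). The fall was near Cyp2c29, at 86.2 and 80.7 against 47.0 and 76.3 (0.047). Both ended without Trib1_WT replicate 1 (0.265 and 0.308), the first also without Trib1_WT replicate 2 (0.128) and the second without Trib1_LSKO replicate 1 (0.421). Cyp8b1, for the enzyme that sets the type of bile acid, had a gained site over the gene at 80.9 and 74.7. Over the bile acid and cytochrome group, 3 of 64 sites were gained and 3 lost (4.69% each, against 4.74% and 4.87% of all sites). No site near the urea cycle genes Cps1 and Arg1 changed, among 17 common ones.

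The growth factor and iron genes Igf1, Igfbp1 and Hamp held 2 rises (6.90%, against 7.44% of all common sites) among 29 common sites. They held no fall (against 2.21%). Both rises were at Igf1. The site chr10:87429178-87429431, 29.2 kb above the gene, stood at 25.8 and 7.06 in Trib1_WT and 68.6 and 61.7 in Trib1_LSKO. Its shift was 1.81 ± 0.334 (limma, Benjamini-Hochberg adjusted p = 0.000739), and it kept its call in every setting that tested it. The other, at 73.3 and 72.3 against 83.2 and 87.2 (0.0442), had an adjusted p of 0.21, 0.289 and 0.0864 without Trib1_WT replicate 1, Trib1_WT replicate 2 and Trib1_LSKO replicate 2. Igf1 also had 2 lost sites, and the median shift of its 16 common sites was -0.14. Hamp had 1 gained and 1 lost site. Over the 3 loci, 3 of 45 sites were lost (6.67%, against 4.87% of all sites) and 1 was gained (2.22%, against 4.74%).

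Genes of liver transcription factors, with Trib1 listed among them, held 2 rises and 2 falls among 54 common sites. These are 3.70% each, against 7.44% and 2.21% of all common sites. Of the 98 sites, 6 were gained (6.12%, against 4.74% of all sites) and 4 lost (4.08%, against 4.87%). The rises were those near Trib1 described above, and 1 of the falls was near Cebpa itself. The site chr7:35875676-35875946, 24.1 kb below the gene, stood at 78.7 and 76.8 in Trib1_WT and 36.5 and 54.9 in Trib1_LSKO (shift -0.98 ± 0.224; limma, Benjamini-Hochberg adjusted p = 0.00555, and 0.0761 without Trib1_WT replicate 1). A fall 18.4 kb below Foxa2, at 75.5 and 79.9 against 45.4 and 62.6 (0.0325), ended without Trib1_WT replicate 1 (0.116), Trib1_WT replicate 2 (0.288) or Trib1_LSKO replicate 1 (0.142). Without limma's trend the falls near Cebpa and Foxa2 lost the call (limma, Benjamini-Hochberg adjusted p of 0.0551 and 0.118). Cebpa also had a lost site over the gene (59.1 and 45.5 in Trib1_WT) and a gained site 32.7 kb below it (42.1 and 39.1 in Trib1_LSKO). A lost site 3.7 kb below Foxa2 stood at 56.9 and 63.8 in Trib1_WT. Cebpb, Cebpd and Hnf4a held gained or lost sites, at 53.0 or less in the lists that chose them, and no common site that passed.

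**Figure D4:**
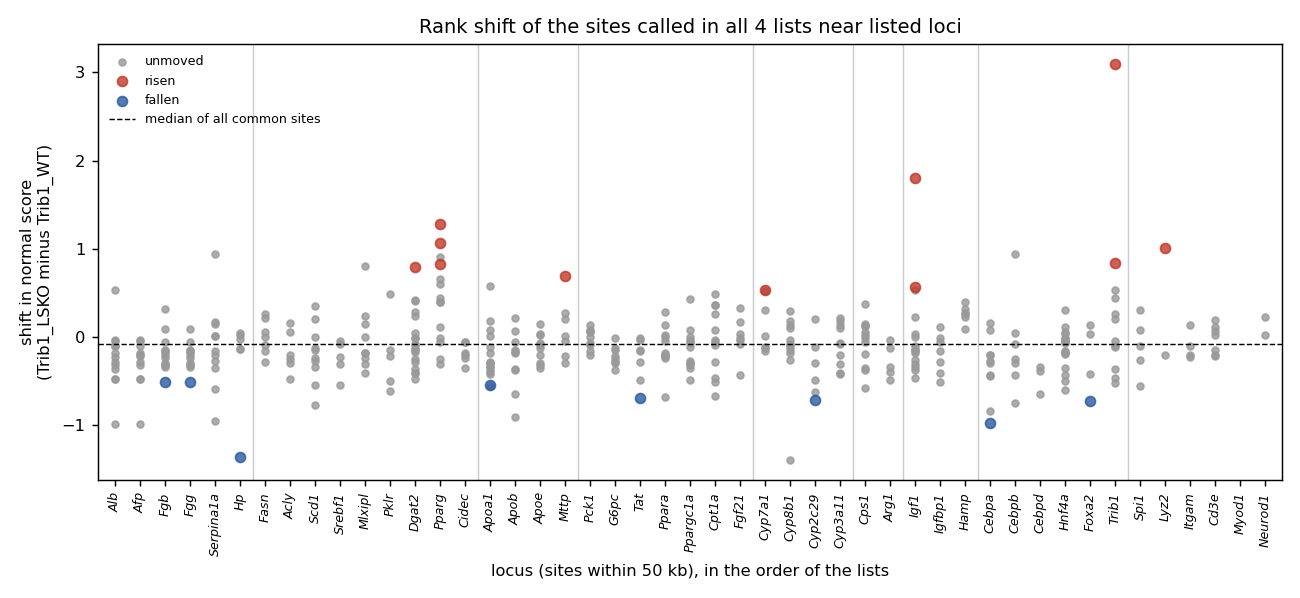
Shift in normal score (vertical, Trib1_LSKO minus Trib1_WT) of every common site within 50 kb of each listed locus (horizontal, grouped by function, the last 6 for other cell types), with rises in red, falls in blue and the median of all common sites dashed. Trib1 and Igf1 hold the largest rises (3.10 and 1.81), and Pparg is the locus with 3 rises.

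The sites that moved were also read in the 4 lists from the second experiment, which the choice did not use. Over the 2590 risen sites the mean percentile, where called, was 50.0 and 48.0 in AAV_Null and 79.2 and 82.7 in AAV_Cebpa, a difference of 31.98 points. Over the 770 fallen sites it was 61.0 and 59.3 against 51.3 and 54.9, a difference of -7.08. Over the 31451 unmoved sites it was 62.7 and 63.8 against 64.2 and 68.1, a difference of 2.85. The groups overlapped in none of these classes, so the lack of overlap is not particular to sites that moved. Each class had the exact two-sided permutation p of 0.33 that is the smallest possible here. Among the 24239 sites held by all 8 lists, 94.0% of 1654 risen, 40.8% of 22215 unmoved and 19.2% of 370 fallen sites ranked higher in AAV_Cebpa than in AAV_Null, and Pearson's r of the shifts over sites was 0.557. No library is common to the shifts of the 2 experiments.

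Calling followed the same order. Of the risen sites, 74.1% and 70.5% were held by the AAV_Null lists and 97.7% and 98.7% by the AAV_Cebpa lists. For fallen sites the shares were 87.9% and 84.9% against 53.9% and 69.1%, although the AAV_Cebpa lists are longer. For unmoved sites they were 86.6% and 86.7% against 83.8% and 89.4%. Fallen sites were thus near the unmoved ones in AAV_Null and below them in AAV_Cebpa, and risen sites were below them in AAV_Null and above them in AAV_Cebpa. All 10 of the largest rises were in both AAV_Cebpa lists, and 9 of the 10 largest falls were in neither. Of those 9, however, 3 were in neither AAV_Null list.

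**Figure D5:**
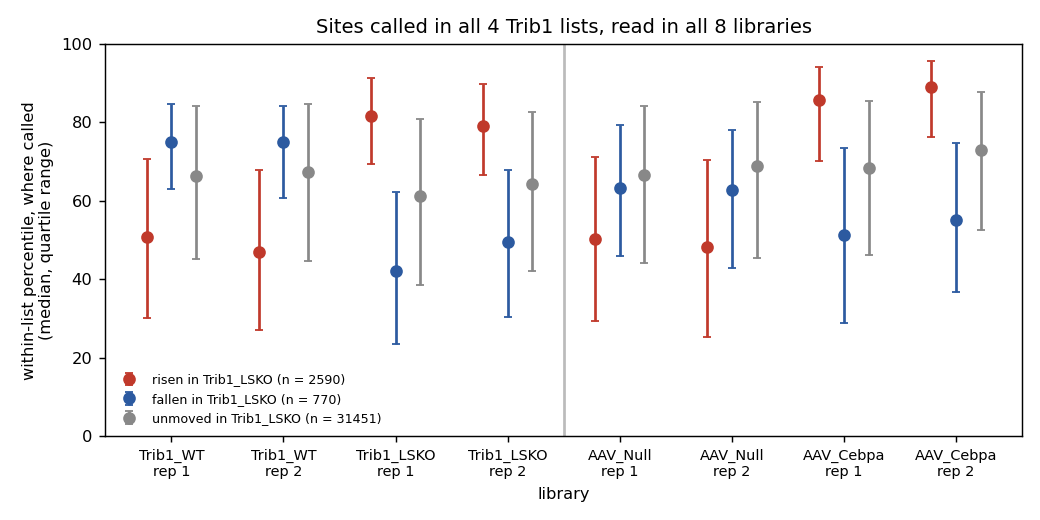
Median within-list percentile (points, with bars for the quartile range) in each of the 8 libraries, where called, for the common sites that rose, fell or did neither in Trib1_LSKO. Risen sites stand at 46.9 to 50.9 in the lists of mice given AAV_Null and at 79.0 to 88.9 in those given AAV_Cre or AAV_Cebpa, and fallen sites show the opposite order.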

How the data were processed

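C/EBPα ChIP-seq peaks of mouse liver were deposited by the authors as 1 list per library, each line with a position and a signal value. The submitters' processing notes name Bowtie, HOMER and the build mm9. For versions, input libraries, thresholds and duplicate handling, nothing is given in the sources used here. The deposited signal is the authors' own value for each peak and was used only for ranks. Within a tolerance of 0.051, at least 99.967% of a library's values were whole multiples of 1 step, and the inverse of the step gave the relative depth. Absolute depth is not given.

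Positions are 1-based. Overlapping peaks were joined with Python 3.11.15 (pandas 2.3.3), the strongest peak standing for its library. Normal scores of ranks over the common sites were fitted with limma 3.58.1 (R 4.3.3), a 2-group design with a variance trend, with p-values adjusted by the Benjamini-Hochberg method over all 34811 sites. The script was tested on simulated data. Single values were compared by exact permutation tests.

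No mm9 genome or annotation was used here. The 47 loci were listed by hand from general knowledge of mm9 gene positions, rounded to 10 kb. All 47 match the symbol and chromosome in the RefSeq table of GRCm38.p6, and the spacing of 9 neighbouring pairs within 5 Mb differs from that table by at most 10.1 kb. Pairs farther apart differ by up to 6475.4 kb, many loci, Trib1 included, are in no pair within 5 Mb, and no position was checked against mm9. No sequence is printed. Some further loci are not reported here.

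Named sites are the 10 strongest gained and lost sites, the 10 largest rises and falls that passed, the 5 windows (ties kept) with the most changes in each direction, and changed sites near the listed loci. Members, loci and lists were chosen with earlier results of these data known.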

Additional observations from a re-analysis of the deposited data

How the results depend on the processing

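With 1 library left out, risen sites ranged from 1760 to 3404, fallen from 121 to 2557, gained from 5456 to 7662 and lost from 5549 to 9344. The last 2 use a looser definition, since 1 group then needs a peak in 1 list. Within-list percentiles gave 1565 risen and 388 fallen sites, no variance trend 1418 and 294, the strongest 50% of every list 1050 and 165 (fewer sites tested), and centring on the median shift, chosen after seeing the data, 453 fallen sites. The strongest 50% gave 2248 gained and 2023 lost sites. Replicate numbers are shared only by name: the replicate differences of the 2 groups correlated at 0.135, and the replicate block gave 3459 risen and 1912 fallen sites. No site reversed. Of 46 named shifts, 24 kept their call in every setting that tested them. Most of the 24 were not among the strongest 50% of every list, so that setting did not test them. Elsewhere the cause was not tested. The difference in peaks per list was -3934.0 to -937.0 with 1 library left out. Around liver loci, 1.84% and 3.54% of common sites rose within 20 and 100 kb. Depth limits absence: the weakest listed peak held 7 to 11 tags.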

Other observations

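Rises in rank were spread over the chromosomes. Chromosome 18 had the highest share of risen common sites (118 of 1237, 9.54%), followed by chromosome 15 (134 of 1497, 8.95%), which holds Trib1, and chromosome 13 (158 of 1777, 8.89%). The lowest shares among the autosomes and chromosome X were on chromosomes 17 (68 of 1246, 5.46%), 19 (72 of 1258, 5.72%) and X (40 of 697, 5.74%). Falls ranged from 1.29% of common sites on chromosome X to 2.97% on chromosome 17, and none of the 9 common sites on chromosome Y passed in either direction. No test of these shares was run.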
